A study of Homo sapiens with 6 samples.

Results

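Cadherins are the transmembrane proteins that hold neighbouring cells together, and the Snail, Twist and ZEB transcription factors are the repressors best known for switching off the epithelial cadherin gene during epithelial-mesenchymal transition (EMT). The 10 genes described here are the cadherins CDH1, CDH2, CDH3 and CDH11 and the transcription factors SNAI1, SNAI2, TWIST1, TWIST2, ZEB1 and ZEB2. All 23 probe sets that the platform annotation gives to these 10 genes alone were taken, out of 54613 probe sets tested. No probe set was shared between a member and another gene (0 found). At gene level each gene was read by its brightest probe set, and the 10 genes are 10 of 19775 tested.

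Affymetrix HG-U133 Plus 2.0 arrays gave transcript levels in 1833 cells, a bone-growing subline of the human breast cancer line MDA-MB-231. The 3 arrays labelled S153E-RKIP are from cells transduced with a lentiviral vector for S153E-RKIP, a mutant RKIP that the series calls a stronger inhibitor of the kinase Raf-1, and kept in 0.5 µg/ml puromycin. The 3 control arrays are from 1833 cells with the vector control, and their labels name no puromycin. The part of puromycin in the differences was not tested, and by the labels it cannot be told apart from that of S153E-RKIP. Every level is a log2 RMA signal, and every difference is S153E-RKIP minus control on the log2 scale. The labels name neither the promoter of the transgene nor the number of clones, and do not say how the biological replicates arose, so the spread that the p-values measure may in part be technical.

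The labels could not be checked through the introduced gene. PEBP1, which encodes RKIP, ran from 11.61 to 11.74 on the arrays labelled S153E-RKIP and from 11.73 to 11.77 on control arrays, with a difference of -0.093 (SE 0.058, limma adjusted p = 0.473). Where its probes lie relative to the introduced sequence was not analysed here. The source name of the arrays labelled S153E-RKIP speaks of HMGA2 shRNA, and HMGA2 ran from 9.72 to 9.84 on them and from 9.77 to 9.81 on control arrays. Every direction below therefore rests on the label S153E-RKIP. Of 5 genes known to be high in MDA-MB-231 cells, VIM, CD44, CAV1, AXL and EGFR, all 5 lay above the median level of all genes (6.64). Of 6 luminal breast genes known to be low in MDA-MB-231 cells 3 also lay above it, EPCAM (8.31), GATA3 (8.08) and ESR1 (6.65). These 3 genes were thus not low by this measure, and ESR1 lay close to the median level. The probe set of ESR1 is of the kind (_x_at) that can pair with several transcripts. The mean level of the 6 luminal genes ran from 6.26 to 6.29 on the arrays labelled S153E-RKIP and from 6.23 to 6.28 on control arrays. The median probe set signal of an array was between 5.63 and 5.67 for the arrays labelled S153E-RKIP and between 5.60 and 5.62 for control arrays. In a principal component analysis 46.1% of the variance lay on an axis that separates the groups and 21.6% on the next, where S153E-RKIP replicate 1 stood away from replicates 2 and 3.

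In epithelia, E-cadherin (CDH1) joins cells through its outer domain and binds catenins through its tail. In EMT, SNAI1, SNAI2, ZEB1 and ZEB2 bind E-box motifs in epithelial genes and repress them, while mesenchymal cadherins such as N-cadherin (CDH2) and cadherin 11 (CDH11) are typically gained. ZEB1 and ZEB2 are held down in epithelial cells by the miR-200 family, whose microRNAs pair with their transcripts through the seed, and the ZEB proteins in turn repress the miR-200 genes.

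The mature microRNAs of the family are shown because they are the best known regulators of the ZEB pair, of which the arrays read ZEB1 brightly and ZEB2 dimly. These arrays did not measure mature microRNAs. Capitals mark the seed, bases 2 to 8, which falls into 2 classes that differ in a single base. Sequences are from RefSeq (GRCh38.p14).
hsa-miR-200a-3p: uAACACUGucugguaacgaugu
hsa-miR-141-3p: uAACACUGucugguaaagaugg
hsa-miR-200b-3p: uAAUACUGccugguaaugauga
hsa-miR-200c-3p: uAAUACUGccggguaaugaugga
hsa-miR-429: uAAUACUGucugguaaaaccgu

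The E-box that Snail and ZEB factors bind, CAGGTG on either strand (CACCTG on the other), was looked for in promoter windows of 250 bases before to 50 after a gene's start in RefSeq. Windows were looked at for 4 of the members, CDH2, TWIST2, ZEB1 and ZEB2, and not for the others, the called genes CDH11 and SNAI2 among them. Of their 11 windows 2 hold the motif, both of ZEB1, which has 7 windows. The motif is in 20.6% of all 35116 RefSeq windows. The chromosome of SNAI2 was left out of the member windows, and this share was taken without that omission. The ZEB1 window with 3 matches is shown, on the plus strand of chr10:31318966-31319265 (GRCh38.p14), with the matches in capitals. A match describes the letters and is not evidence of binding.
ZEB1: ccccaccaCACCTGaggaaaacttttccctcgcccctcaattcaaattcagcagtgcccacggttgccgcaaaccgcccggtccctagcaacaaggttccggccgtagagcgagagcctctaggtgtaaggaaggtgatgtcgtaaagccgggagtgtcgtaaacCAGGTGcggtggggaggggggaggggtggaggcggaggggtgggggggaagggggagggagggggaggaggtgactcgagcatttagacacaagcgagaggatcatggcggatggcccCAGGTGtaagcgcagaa

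On the arrays labelled S153E-RKIP, CDH11 rose 1.87-fold and SNAI2, which encodes Slug, fell 1.33-fold, and the other 8 genes did not pass the test. The call rule was an adjusted p under 0.05 in limma, with Benjamini-Hochberg adjustment over all 19775 genes. Of the 4 cadherins 1 rose and none fell (0), and of the 6 transcription factors 1 fell and none rose (0). Over all genes 0.688% were called higher, 1.21% lower and 1.90% either way. The median difference of the 10 members was 0.015 and that of all genes 0.010. In 3 of the 10 genes all arrays of a group lay above all arrays of the other, CDH11 and TWIST2 higher on the arrays labelled S153E-RKIP and SNAI2 lower, while 20.1% of all genes were parted in this way (9.31% higher and 10.8% lower). These same 3 genes had an unadjusted p under 0.05, against 15.7% of all genes (7.75% higher and 7.92% lower). The 10 members were chosen with earlier results of these data known, so these counts are not a test of them as a set.

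**Figure D1:**
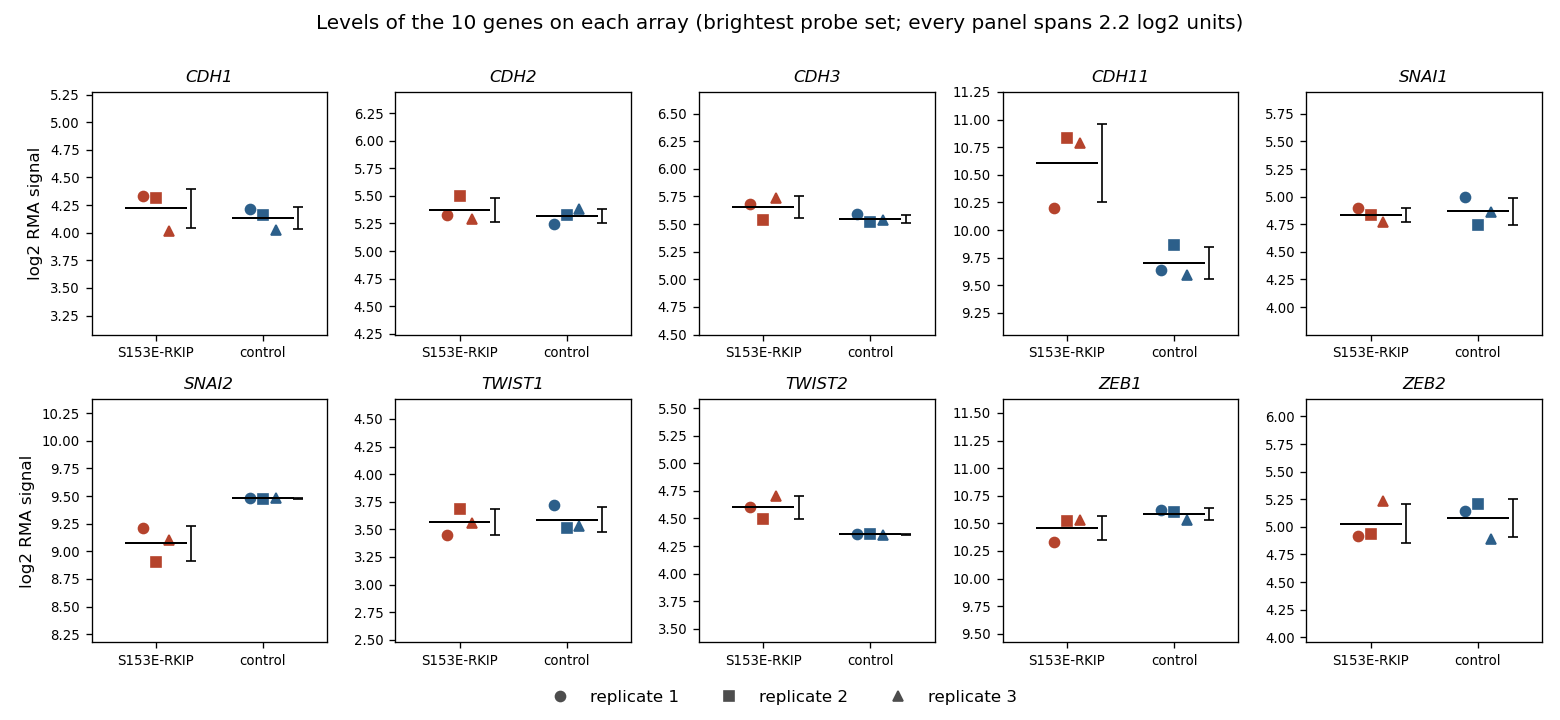
Log2 RMA signal (y axis) of the 10 genes on each array, S153E-RKIP in red and control in blue, each read by its brightest probe set. Symbols are replicates 1 to 3, lines are means and bars are SDs (n = 3 each), and every panel spans the same log2 range. The groups lie apart for CDH11, SNAI2 and TWIST2, touch for ZEB1 and overlap for the other 6 genes.

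CDH11 encodes cadherin 11, a cadherin of osteoblasts and mesenchymal cells. Its brightest probe set, 207173_x_at, read 10.20, 10.84 and 10.78 in S153E-RKIP replicates 1, 2 and 3, against 9.64, 9.87 and 9.59 in control replicates 1, 2 and 3. The groups did not overlap, and S153E-RKIP replicate 1 lay closest to control. The log2 difference was 0.91 with an SE of 0.16 (95% confidence interval 0.54 to 1.28; limma adjusted p = 0.0309). This call was lost when any array but S153E-RKIP replicate 1 was left out: the adjusted p was 0.141 and 0.110 without S153E-RKIP replicate 2 or 3, and 0.168, 0.0752 and 0.155 without control replicate 1, 2 or 3. The difference itself ran from 0.79 to 1.11 over the 6 omissions, and leaving out S153E-RKIP replicate 1 gave an adjusted p of 0.00442.

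The other 3 probe sets of CDH11 gave the same picture at lower signal. Probe set 207172_s_at read 9.09, 9.76 and 9.72 in S153E-RKIP replicates 1 to 3, against 8.55, 8.86 and 8.57 in control replicates 1 to 3. Probe set 236179_at read 7.64, 8.17 and 8.28 in the S153E-RKIP replicates, against 7.10, 7.35 and 6.91 in the control replicates. The dimmest, 239286_at, read 6.18, 6.81 and 6.57 in the S153E-RKIP replicates, against 5.94, 5.99 and 5.82 in the control replicates. On each of the 4 probe sets the groups did not overlap, replicate 1 was the lowest of the S153E-RKIP arrays and replicate 2 the highest of the control arrays. The probe sets read the same RNA samples and are not independent of each other. Tested by themselves over all 54613 probe sets, of which 1.05% were called (0.366% as higher), 207173_x_at and 236179_at were called (differences of 0.91 each, limma adjusted p = 0.0395 and 0.0497). The others were not, with a difference of 0.86 for 207172_s_at (adjusted p = 0.0636) and of 0.60 for 239286_at (adjusted p = 0.117). The brightest probe set is of the kind (_x_at) that can pair with several transcripts, while 236179_at and 239286_at are not.

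**Figure D2:**
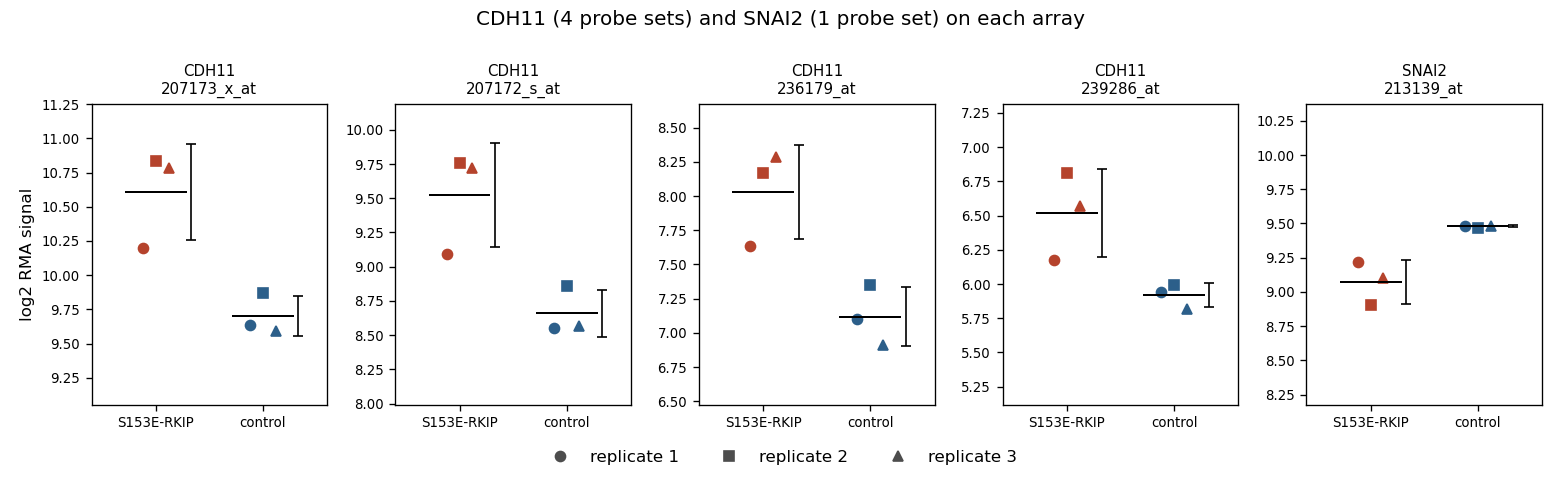
Log2 RMA signal (y axis) on each array for the 4 probe sets of CDH11 and the single probe set of SNAI2, S153E-RKIP in red and control in blue. Symbols are replicates 1 to 3, lines are means and bars are SDs (n = 3 each). S153E-RKIP replicate 1 is the lowest red point in all 4 CDH11 panels, and the control points of SNAI2 lie between 9.47 and 9.48.

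CDH1, whose product E-cadherin defines epithelial junctions, was dim on both of its probe sets. The brighter, 201130_s_at, read 4.33, 4.32 and 4.02 in S153E-RKIP replicates 1 to 3, against 4.22, 4.16 and 4.03 in control replicates 1 to 3. The groups overlapped, with a difference of 0.085 ± 0.095 (SE; 95% confidence interval -0.13 to 0.30, limma adjusted p = 0.698). The dimmer, 201131_s_at, read 3.86, 3.82 and 4.05 in the S153E-RKIP replicates, against 3.72, 3.79 and 3.65 in the control replicates. There the groups did not overlap, but the difference of 0.19 had an adjusted p of 0.359 over all probe sets in limma. Both probe sets lay far below the median level of all genes. RMA values carry no detection call, and a change near background would be understated.

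CDH2, encoding N-cadherin, the cadherin typically gained in EMT, was also read below the median level. Its brighter probe set gave 5.33, 5.50 and 5.29 in S153E-RKIP replicates 1 to 3, against 5.25, 5.33 and 5.38 in control replicates 1 to 3. The groups overlapped, with a difference of 0.053 ± 0.072 (SE; 95% confidence interval -0.11 to 0.22, limma adjusted p = 0.755). The dimmer CDH2 probe set had a difference of 0.069 (adjusted p = 0.750 over all probe sets). CDH3, encoding the P-cadherin of basal epithelial cells, read 5.68, 5.54 and 5.73 in the S153E-RKIP replicates, against 5.59, 5.52 and 5.54 in the control replicates. These groups overlapped too, with a difference of 0.10 (95% confidence interval -0.050 to 0.25, adjusted p = 0.485). All 9 cadherin probe sets had a difference above 0, of which 4 belong to CDH11, and 53.6% of all 54613 probe sets had one. Of the 9, 6 were read below the median level of all genes.

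SNAI2 encodes Slug, a zinc finger repressor of epithelial genes that marks basal-like breast cells. Its single probe set, 213139_at, read 9.21, 8.90 and 9.10 in S153E-RKIP replicates 1, 2 and 3, against 9.48, 9.47 and 9.48 in control replicates 1, 2 and 3. The groups did not overlap, and the control arrays spread far less (SD 0.0077) than the arrays labelled S153E-RKIP (SD 0.16, n = 3 each). The log2 difference was -0.41 with an SE of 0.081 (95% confidence interval -0.59 to -0.22; limma adjusted p = 0.0496 over all genes). Tested among all probe sets the same values gave an adjusted p of 0.0719, which ended the call. Without S153E-RKIP replicate 2 or 3 the adjusted p was 0.0969 or 0.110, and without control replicate 1, 2 or 3 it was 0.205, 0.171 or 0.188. Leaving out S153E-RKIP replicate 1 gave 0.0339. It also missed the threshold after quantile normalization again (0.0661) and with probe sets ending in _x_at or _s_at left out of the table (0.0593). Over the 6 omissions the difference ran from -0.48 to -0.32.

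**Figure D3:**
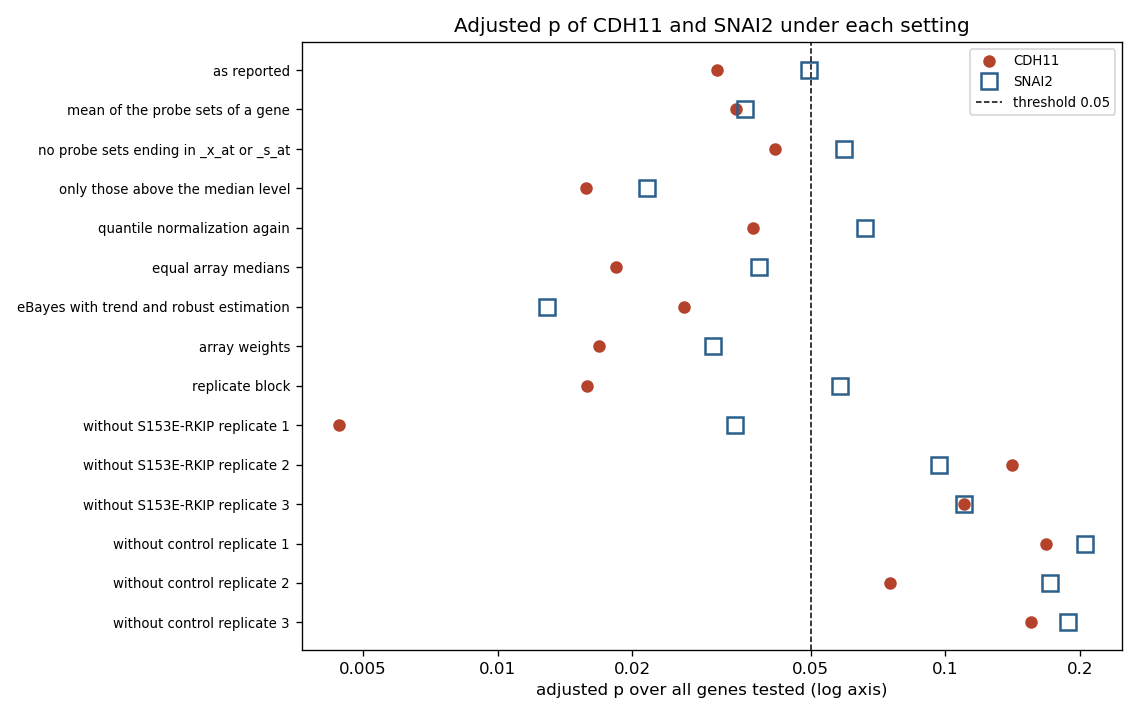
Adjusted p over all genes tested (x axis, log scale) of CDH11 (filled red circles) and SNAI2 (open blue squares) as reported and under each other setting (y axis), with the threshold of 0.05 as a dashed line. With all 6 arrays CDH11 stays left of the line under every setting shown, from 0.0157 to 0.0417, and SNAI2 lies on both sides of it. Without any 1 array other than S153E-RKIP replicate 1 both genes lie to the right of the line.

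SNAI1, which encodes Snail, the best known repressor of CDH1, was read by a probe set below the median level. It gave 4.90, 4.84 and 4.77 in S153E-RKIP replicates 1 to 3, against 4.99, 4.74 and 4.86 in control replicates 1 to 3. The groups overlapped, with a difference of -0.032 ± 0.076 (SE; 95% confidence interval -0.21 to 0.14, limma adjusted p = 0.870). The members of the Snail pair were thus read at unlike brightness, and of the pair only SNAI2 was called. Whether their differences differ from each other was not tested.

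ZEB1, a zinc finger and homeodomain repressor of CDH1 and of the miR-200 genes, was bright on 3 of its 4 probe sets. The brightest, 212764_at, read 10.34, 10.52 and 10.53 in S153E-RKIP replicates 1 to 3, against 10.62, 10.60 and 10.53 in control replicates 1 to 3. The highest array labelled S153E-RKIP and the lowest control array, both replicate 3, had the same value, so the groups touched, with a difference of -0.12 ± 0.070 (SE; 95% confidence interval -0.28 to 0.036, limma adjusted p = 0.430). Probe set 210875_s_at read 8.31, 8.60 and 8.65 in the S153E-RKIP replicates, against 8.78, 8.72 and 8.68 in the control replicates. On it the groups did not overlap, with a difference of -0.21 (adjusted p = 0.388 over all probe sets). The 4 differences of ZEB1 ran from -0.21 to 0.050, and 0 of the 4 had an unadjusted p under 0.05.

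ZEB2, the paralog of ZEB1, was dim on all 5 of its probe sets, with signals from 3.52 to 5.23. The brightest, 203603_s_at, read 4.92, 4.93 and 5.23 in S153E-RKIP replicates 1 to 3, against 5.14, 5.21 and 4.89 in control replicates 1 to 3. The groups overlapped, with a difference of -0.050 ± 0.11 (SE; 95% confidence interval -0.30 to 0.20, limma adjusted p = 0.855). The 5 differences of ZEB2 ran from -0.050 to 0.098, and 0 of the 5 had an unadjusted p under 0.05.

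TWIST1 and TWIST2 encode basic helix-loop-helix factors that drive mesenchymal programmes. TWIST1 read 3.45, 3.69 and 3.56 in S153E-RKIP replicates 1 to 3, against 3.72, 3.52 and 3.53 in control replicates 1 to 3, the dimmest of the 10 genes. Its groups overlapped, with a difference of -0.023 (95% confidence interval -0.21 to 0.17, limma adjusted p = 0.920). TWIST2 read 4.60, 4.50 and 4.70 on probe set 229404_at in the S153E-RKIP replicates, against 4.36, 4.36 and 4.35 in the control replicates. All 3 arrays labelled S153E-RKIP were above the control arrays, but the gene was not called (difference 0.24, SE 0.065, adjusted p = 0.132). The dimmer TWIST2 probe set, 1554163_at, overlapped between groups (difference 0.12, adjusted p = 0.669 over all probe sets).

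Over the 8 genes that were not called, the 95% confidence intervals of the differences lay between -0.30 and 0.39 in log2 units. Of these 8, 7 were read below the median level of all genes and ZEB1 above it. Of the 23 probe sets, 2 were called higher, both of CDH11, against 0.366% of all probe sets. None was called lower (0, against 0.685% of all probe sets). An unadjusted p under 0.05 was found for 7, against 13.2% of all probe sets (6.34% higher and 6.89% lower). The groups did not overlap for 8, of which 6 were higher and 2 lower, against 17.1% of all probe sets (8.09% higher and 9.06% lower). CDH11 gave 4 of those 7 and 4 of those 8.

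**Figure D4:**
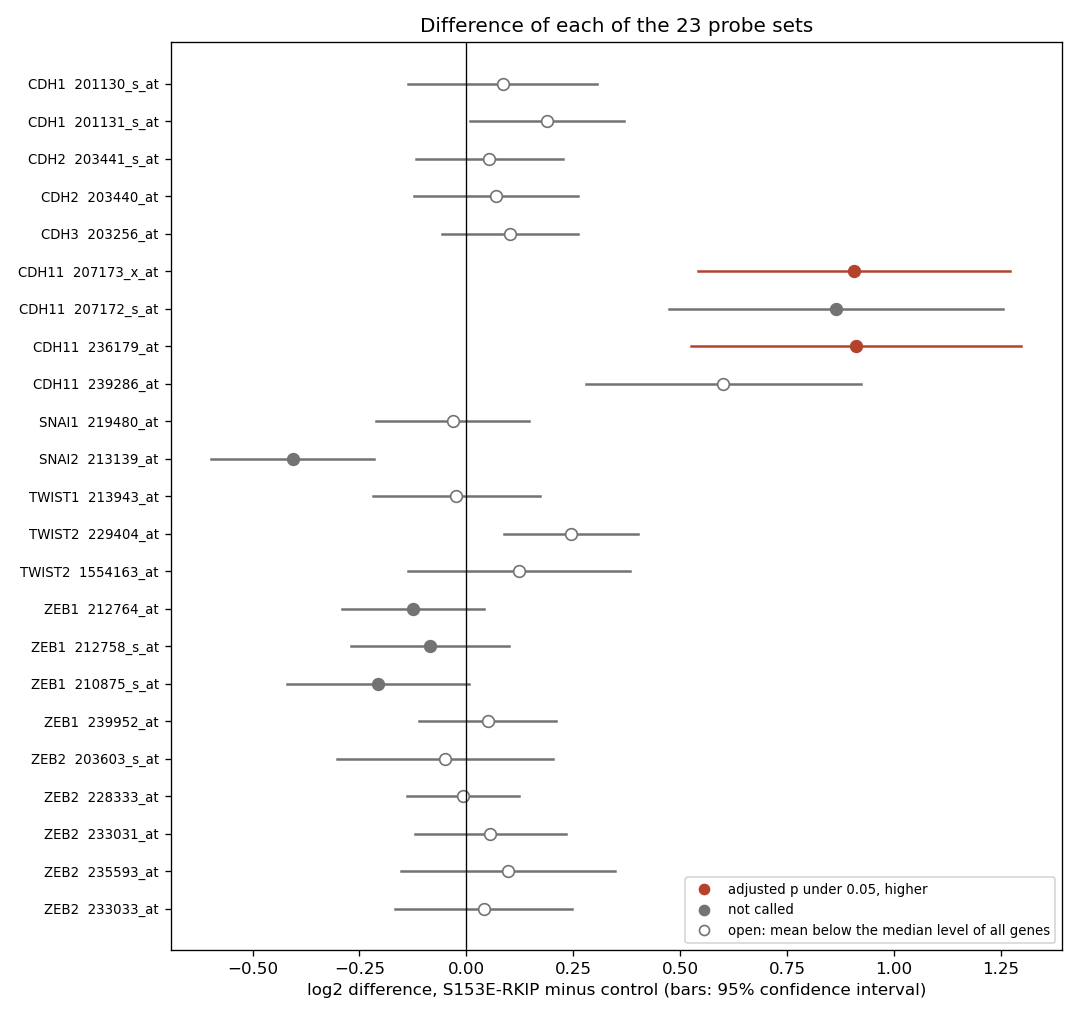
Log2 difference, S153E-RKIP minus control (x axis), of each of the 23 probe sets, with 95% confidence intervals as bars. Red points were called higher at an adjusted p under 0.05 over all probe sets, grey points were not called, and open points have a mean below the median level of all genes. The 4 CDH11 probe sets lie between 0.60 and 0.91, SNAI2 lies at -0.41, and the other 18 lie between -0.21 and 0.24.

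The pathway around these genes was described by 8 lists with 127 distinct measured genes, of which 2 were called higher and 3 lower (1.90% of all genes were called either way). The lists were chosen with earlier results of these data known, so the counts in them are not a test of the lists. Of 17 other cadherins measured 0 were called, and 14 were read below the median level of all genes. The median difference of the 17 was 0.090, against 0.010 over all genes. CDH18 had the smallest p among them, with 7.43, 7.09 and 7.48 in S153E-RKIP replicates 1 to 3, against 7.75, 7.78 and 7.69 in control replicates 1 to 3 (difference -0.41, limma adjusted p = 0.104). With trend and robust estimation in eBayes CDH18 was called lower (adjusted p = 0.0493), and its adjusted p ran from 0.0493 to 0.146 over the 8 alternatives with all 6 arrays. Of 15 catenins and junction partners, some of which tie cadherin tails to actin, 0 were called (median 0.033). The smallest p among the 15 was that of PKP4, a plakophilin of the p120 catenin family (difference -0.19, limma adjusted p = 0.248). Of 11 desmosome genes 0 were called (median 0.083), with the smallest p for PKP2, a desmosomal plaque protein (difference -0.37, adjusted p = 0.155). Of 11 genes for shedding and endocytosis of cadherins 0 were called (median -0.030), with the smallest p for MMP3, a stromelysin that can cleave E-cadherin (difference 0.36, adjusted p = 0.259).

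Of 12 other transcription factors linked to EMT, SOX9 fell and 11 were not called (median 0.047), while 1.90% of all genes were called either way. The groups did not overlap for 1 of the 12, against 20.1% of all genes. An unadjusted p under 0.05 was found for 2 of them, against 15.7% of all genes. SOX9, a factor known to act beside Slug in mammary stem cells, read 9.03, 9.15 and 9.18 in S153E-RKIP replicates 1 to 3, against 9.75, 9.62 and 9.53 in control replicates 1 to 3. The groups did not overlap, and the difference was -0.51 (SE 0.075, limma adjusted p = 0.0130). Its 2 probe sets were both called lower by themselves. Omission of S153E-RKIP replicate 2, control replicate 1 or control replicate 2 ended the gene-level call, with an adjusted p of 0.0632, 0.0733 or 0.0641. Of 20 co-repressors and turnover factors of Snail, Twist and ZEB proteins 0 were called (median -0.062). The smallest p there was that of CTDSP1, a phosphatase known to stabilise Snail (difference -0.18, adjusted p = 0.284).

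Of 23 epithelial genes that Snail and ZEB factors are known to repress, CLDN1 rose, KRT19 fell and 21 were not called (median 0.035). Over all genes 1.90% were called either way. The groups did not overlap for 5 of the 23 (2 higher and 3 lower), against 20.1% of all genes. An unadjusted p under 0.05 was found for 5 of them, against 15.7% of all genes. CLDN1, encoding the tight junction protein claudin 1, read 8.70, 8.77 and 8.81 in S153E-RKIP replicates 1 to 3, against 7.42, 7.66 and 7.53 in control replicates 1 to 3. The groups were far apart, with a 2.33-fold rise (difference 1.22, SE 0.073, limma adjusted p = 1.46e-04). Its 2 probe sets were both called by themselves (differences of 1.22 and 0.83), and the gene stayed called with any 1 array left out (adjusted p up to 0.00411). KRT19, a keratin of simple epithelia, read 10.94, 10.90 and 11.00 in the S153E-RKIP replicates, against 11.41, 11.46 and 11.44 in the control replicates. The groups did not overlap (difference -0.48, adjusted p = 0.00437). Its dimmer probe set had a difference of 0.12, and with the mean of both the difference was -0.18 (adjusted p = 0.246).

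Of 18 mesenchymal genes, TNC rose, LOX fell and 16 were not called (median 0.013), while 1.90% of all genes were called either way. The groups did not overlap for 8 of the 18 (4 higher and 4 lower), against 20.1% of all genes. An unadjusted p under 0.05 was found for 7 of them, against 15.7% of all genes. TNC, the matrix glycoprotein tenascin-C, read 9.08, 9.56 and 9.52 in S153E-RKIP replicates 1 to 3, against 8.58, 8.73 and 8.41 in control replicates 1 to 3. LOX, a collagen crosslinking enzyme, read 8.35, 8.69 and 8.71 in the S153E-RKIP replicates, against 9.15, 9.17 and 9.21 in the control replicates. Neither gene's groups overlapped (TNC difference 0.81, limma adjusted p = 0.0234; LOX difference -0.59, adjusted p = 0.0223), and both calls were lost in 5 of the 6 omissions of 1 array, with an adjusted p of up to 0.132 for TNC and 0.124 for LOX. S153E-RKIP replicate 1 was the array whose omission kept both calls. With the mean of its 3 probe sets the difference of TNC was 0.44 in place of 0.81.

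**Figure D5:**
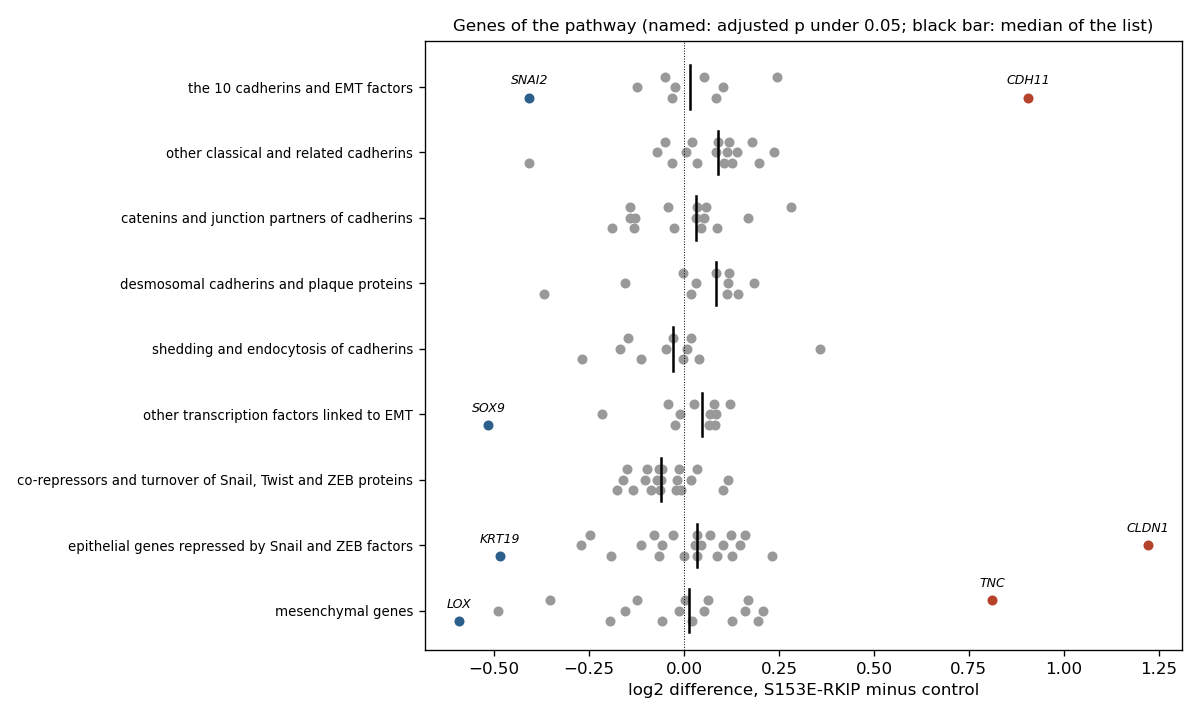
Log2 difference, S153E-RKIP minus control (x axis), of the 10 members and of the measured genes of 8 pathway lists (y axis). Points are genes, named and coloured where called at an adjusted p under 0.05 (red higher, blue lower), and black bars are medians. The medians lie between -0.062 and 0.090, and each named point is the lowest or the highest of its row.

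The genes whose pattern over the 6 arrays was most like that of CDH11 were TNC, FBXO32 and EHF. Likeness was the root mean square difference between gene-centred log2 levels, and it was 0.078 for TNC, 0.10 for FBXO32 and 0.11 for EHF. FBXO32 encodes a ubiquitin ligase subunit (difference 0.87, limma adjusted p = 0.0551), and EHF an ETS factor of epithelial cells (difference 0.86, adjusted p = 0.00375). In all 3, as in CDH11, replicate 1 was the lowest of the arrays labelled S153E-RKIP and replicate 2 the highest of the control arrays. For SNAI2 the most alike were CCN2, a matricellular YAP target (0.025), UCP2, a mitochondrial carrier (0.034), and CRADD, an adaptor of caspase signalling (0.036). Their differences were -0.42 (adjusted p = 0.0525), -0.45 (0.0283) and -0.36 (0.112), and in all 3 replicate 2 was the lowest of the arrays labelled S153E-RKIP. The genes alike to CDH11 and to SNAI2 were picked by their levels on these same arrays. Their like differences and shared order of arrays therefore follow from the choice.

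Markers of other cell types were mostly dim. The mean level of 6 fibroblast markers ran from 5.25 to 5.32 on the arrays labelled S153E-RKIP and from 5.19 to 5.21 on control arrays. For 5 blood cell markers it ran from 5.53 to 5.64 on the arrays labelled S153E-RKIP and from 5.40 to 5.47 on control arrays. For the 5 genes high in MDA-MB-231 cells it ran from 12.55 to 12.62 on the arrays labelled S153E-RKIP and from 12.63 to 12.71 on control arrays. For 5 endothelium and 3 osteoblast markers the groups overlapped. Of these 24 genes 0 were called by limma, against 1.90% of all genes, and 5 had an unadjusted p under 0.05, against 15.7% of all genes. Of those 5, CAV1, CD44 and EGFR are from the list of genes high in MDA-MB-231 cells, and the others are COL1A1 and CD3E. COL1A1 and PECAM1 were the only markers of another cell type above the median level. The part of other cells in the difference of CDH11 was not tested, and in bulk RNA fewer cells of a type and less RNA per cell cannot be told apart.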

How the data were processed

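The values the authors deposited are on a log2 scale, 1 for each probe set on each array. The submitters' processing notes name RMA, whose version was not given in the sources used here. RMA corrects background, normalizes arrays together by quantiles and summarises probes. The labels' protocols name a whole-transcript labelling kit and the series a 3' array. No scanner output was used.

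Of 54675 probe sets 62 controls were left out. A probe set was named where the platform annotation gave 1 gene symbol, matched by gene identifier to RefSeq names (41043 matched, 0 symbols changed). A gene was read by its brightest probe set over all 6 arrays, with no filter on dim genes. Groups were taken from the titles. S153E-RKIP was compared with control in limma 3.58.1 under R 4.3.3 (lmFit, eBayes without trend, two-sided), separately over 19775 genes and 54613 probe sets, with a threshold of 0.05 on the Benjamini-Hochberg adjusted p. An unadjusted p under 0.05 was found for 3098 genes. The code was first tested on simulated data. The number of arrays limits the precision: the median standard error over genes was 0.072. Of the pairs of arrays 0 held identical values.

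The members and lists were chosen with earlier results of these data known. The rule for names took the 10 members, up to 4 called genes of each of the 8 pathway lists (the gene with the smallest p where none was called), and the 3 genes most like each called member. Same-numbered replicates deviated from their group means with correlations of 0.13, 0.26 and -0.044 for numbers 1, 2 and 3. Differently numbered ones ran from -0.27 to 0.13. The numbers were not taken to pair the samples, which these values do not settle. Alternatives tried were averaging a gene's probe sets, dropping those ending in _x_at or _s_at, filtering at the median level, normalizing again by quantiles or to equal array medians, trend and robust estimation in eBayes, weights per array, a replicate block and the omission of each array in turn. Figures were drawn with matplotlib 3.10.9.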

Additional observations from a re-analysis of the deposited data

How the results depend on the processing

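With all 6 arrays CDH11 stayed called at gene level under all 8 alternatives (differences of 0.82 to 0.94), and SNAI2 under 5 of 8 (differences of -0.43 to -0.36). The number of members called was 2, and it was 1 (CDH11) without _x_at and _s_at probe sets, after quantile normalization again and with the replicate block, under which SNAI2 had an adjusted p of 0.0583. The numbers were not taken to pair the samples, which the correlations do not settle. Of the 9 pairs of an S153E-RKIP with a control array, the same-numbered pairs 1 and 2 had the highest correlations. With 1 array left out between 0 and 2 members were called. Of the member probe sets 2 were called. The count was 4 (3 of CDH11 and SNAI2) with only those above the median level and with equal array medians. It was also 4 with eBayes trend and robust estimation and with array weights. It was 3 with the replicate block and between 0 and 4 with 1 array left out. The share of all probe sets called under these alternatives was not counted, so the changes are not a result about the members. Of the pathway genes 5 were called, 6 (with CDH18) under eBayes trend and robust estimation, 4 (without KRT19) with probe sets averaged per gene, 3 without _x_at and _s_at probe sets, and between 2 and 5 with 1 array left out. Over all genes 376 were called, 237 without _x_at and _s_at probe sets and 600 with eBayes trend and robust estimation. The count was 332 with the replicate block and between 124 and 303 with 1 array left out. It was 523 of 9887 with only those above the median level, 431 with equal array medians and 373 with array weights. The omission of probe sets also reduced the genes tested to 17098, CDH1 among those lost. It reduced the pathway genes tested from 127 to 101, and the called genes SOX9 and LOX were among those no longer tested. For the other changes the cause was not tested.

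Signs changed in genes near 0 that were never called: CDH2 had a difference of -0.0037 after quantile normalization again, ZEB2 of 0.027 with the mean of its probe sets, and the TWIST1 probe set of 4.9e-04 with array weights. With 1 array left out, CDH2 ran from -0.0090 to 0.095 at gene level and from -0.022 to 0.12 on its dimmer probe set, SNAI1 from -0.093 to 0.031, TWIST1 from -0.085 to 0.044 and ZEB2 from -0.15 to 0.013, and 3 other ZEB2 probe sets from -0.021 to 0.0050, from -0.0052 to 0.13 and from -0.030 to 0.13. Signal over background was not measured, which limits what can be said of CDH1, CDH2, CDH3, SNAI1, TWIST1, TWIST2 and ZEB2.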
